A study of Mus musculus with 2 samples.

Results

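The genes described here encode the proteins of the cytosolic ribosome, the particle that translates nuclear-encoded messenger RNA. They were taken by symbol. A member was a protein-coding gene named Rpl or Rps followed by a digit, or Rplp0, Rplp1, Rplp2 or Rpsa. Pseudogenes, the S6 kinases, Rps19bp1, Rpl7l1 and Rps18 were left out. This gave 86 of 25004 genes in the count tables, 53 of the large and 33 of the small subunit. RNA came from whole hearts of FvB/N mice aged 12 weeks. One library was made from non-transgenic control mice and 1 from mice with the cMyBP-C delta C0-C1f transgene. This encodes cardiac myosin binding protein-C, a thick-filament protein of the sarcomere, lacking the C0-C1f part of its amino terminus. The RNA of 3 hearts was combined in each library. The labels name neither the promoter of the transgene nor whether the mice keep the endogenous protein. The study's question was how this transgene alters messenger RNA in the heart.

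A ribosome has a small subunit, which holds the messenger RNA and reads its codons, and a large subunit, which joins the amino acids. Each ribosomal protein is needed in nearly the same number of copies, and their messenger RNAs are among the most abundant in growing cells. Many of these messenger RNAs begin with a C and a run of pyrimidines, the terminal oligopyrimidine or TOP motif, through which growth signals by way of mTOR set how strongly they are translated. Ribosomal protein genes also have many processed pseudogenes, copies of the messenger RNA that have been put back into the genome.

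With 1 library per group there is no replicate, no test and no p-value. Each difference describes these libraries. Intervals are exact 95% Clopper-Pearson intervals that cover counting error only, since each group has 1 library. Sequenced reads amplified by PCR are not independent molecules, so even the counting error may be larger than these intervals show. Total read counts were 170543 (non-transgenic) and 190824 (transgenic). A count of 1 was thus 5.86 or 5.24 CPM, that is, counts scaled to an equal total. A gene with 0 counts could by counting error lie at up to 3 counts, which is 17.6 and 15.7 CPM, or 0.00176% and 0.00157% of a library. Mybpc3, the gene of the protein, had 344 and 398 counts, a normalised ratio of 0.920 (0.794 to 1.07). A count per gene does not separate the transgene from the endogenous gene, so this checks nothing about the labels. Of 8 cardiomyocyte markers, 7 had a count, with sums of 4461 and 7559, which gives a ratio of 1.35 (1.30 to 1.40). Tnnt2 had none, Myh6 had 0 and 1, and Mb had 1 and 0. Each of these has several RefSeq transcripts, a class of genes seldom counted here.

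The start regions of ribosomal protein genes are shown because a pyrimidine tract there is a feature the members may share beyond their names. RefSeq promoter windows on GRCm38.p6 were found for 66 of 86 members. A tract was a C followed by at least 7 bases that are each C or T, read on the gene's own strand from 40 bases before to 20 bases after the annotated start. It was in 32 of the 66 windows, 48.5%, against 18.9% of the windows of 17492 protein-coding genes. The windows below are those of the 6 most counted members found with a tract, and of Rpl3l, the striated-muscle form of Rpl3, which has none. Capitals mark the tract. The positions are chr9:64173347-64173406 for Rpl4 and chr9:44407674-44407733 for Rps25, both on the plus strand. They are chr7:45128726-45128785 for Rpl13a on the minus strand and chr7:3704001-3704060 for Rps9 on the plus strand. Rps26 lies at chr10:128626487-128626546 on the minus strand, Rpl5 at chr5:107900488-107900547 on the plus strand and Rpl3l at chr17:24727786-24727845 on the plus strand.
Rpl4: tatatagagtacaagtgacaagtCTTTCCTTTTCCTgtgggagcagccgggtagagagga
Rps25: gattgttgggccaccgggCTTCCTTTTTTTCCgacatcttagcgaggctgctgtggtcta
Rpl13a: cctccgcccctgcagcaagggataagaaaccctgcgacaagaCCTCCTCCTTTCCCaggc
Rps9: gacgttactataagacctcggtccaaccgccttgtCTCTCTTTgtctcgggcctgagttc
Rps26: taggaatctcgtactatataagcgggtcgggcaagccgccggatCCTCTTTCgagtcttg
Rpl5: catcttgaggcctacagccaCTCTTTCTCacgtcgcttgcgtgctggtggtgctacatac
Rpl3l: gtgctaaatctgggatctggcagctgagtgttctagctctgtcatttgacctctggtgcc
In Rpl4 the tract is 13 bases long and begins 17 bases before the annotated start, while in Rpl13a it is 14 bases long and begins 2 bases after it, so annotated starts and tracts did not always coincide. Other motifs were searched on both strands from 250 bases before to 50 after the start, which may overlap the tract's window. CCGGAAG, a core sequence of Ets-family factors, was in 24 of 66 windows (36.4%) against 11.9% of all protein-coding genes. ATGGCGGC was in 3 (4.55% against 3.21%) and TATAAA in 8 (12.1% against 13.3%). These matches are descriptions of sequence and no evidence of binding.

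Ribosomal protein genes took up a small share of the counted reads. Summed over all 86 members they had 630 counts in the non-transgenic library, 0.369% of it (0.341 to 0.399), and 962 in the transgenic library, 0.504% (0.473 to 0.537). The 78 genes of the mitochondrial ribosome (Mrpl and Mrps symbols), which translates only the few messages of the mitochondrial genome, had 1057 and 1199 counts, 0.620% and 0.628%. More of the mitochondrial genes were counted at all. A count in at least 1 library was found for 57 of 78 of them and for 52 of 86 cytosolic members. More than 3 counts in a library, the limit for giving a ratio here, were reached by 53 of 78 and 37 of 86. By members, 34 had 0 counts in both libraries and 15 had a count but no ratio. Cytosolic members with several transcript accessions or much shared sequence had few counts, as described below. Neither property was compared with the mitochondrial genes, so these shares do not rank the expression of the cytosolic and mitochondrial ribosomes.

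The 34 members without a count include standard proteins of both subunits. In the large subunit these were Rpl10, Rpl10a, Rpl12, Rpl15, Rpl19, Rpl26, Rpl27, Rpl29, Rpl30, Rpl31, Rpl34, Rpl35a, Rpl38 and Rplp2. In the small subunit they were Rps10, Rps12, Rps13, Rps15, Rps16, Rps19, Rps21, Rps23, Rps24, Rps27, Rps27a, Rps28 and Rps29. Rps19, the gene most often mutated in Diamond-Blackfan anaemia, and Rps27a, whose product is made as a fusion with ubiquitin, are among them. Rps6, the target of the S6 kinases, had 0 and 3 counts. Rpl11, which with the Rpl5 protein and a small ribosomal RNA forms part of the large subunit, had 0 and 1. A count of 0 for these genes does not show that they were barely expressed.

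The number of transcript accessions behind a gene went with its count. Counting was done per RefSeq transcript, and 23 members had several accessions. Of these, 21 had 0 counts in both libraries. The exceptions were Rpl22, with 1 and 0 counts over 5 accessions, and Rpl3l, with 5 and 13 over 2. Rps19 had 9 accessions, and Rps21 and Rps24 had 6 each. Of the 63 members with 1 accession, 50 had a count and 13 had none. Over all genes, 7019 of 17075 with 1 accession and 1180 of 7929 with several had a count.

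Counts also went with how much of a gene's sequence occurs elsewhere. The coding part of a GENCODE M21 transcript was read in steps as all its 50-base words, and a word counted as shared if any transcript of another annotated gene, pseudogenes included, holds it on either strand. Among 13 members with 1 accession and under 75% of words shared, 11 had a count, with a median of 20 (range 0 to 122) in non-transgenic and 42.0 (0 to 162) in transgenic hearts. The exceptions at 0 were Rpl10l and Rpl39l, retained copies known from the testis. Among 25 members with 75% to under 100% shared, medians were 4.0 and 7.0, and among 24 with every word shared they were 0.0 and 1.0. The 13 genes of the first class held 375 of 630 and 588 of 962 of the members' counts. Across the 62 members with 1 accession and a value, Spearman's rho between the share and the count was -0.59 for the non-transgenic and -0.58 for the transgenic counts. It was -0.86 and -0.88 over 24 small subunit genes and -0.35 and -0.35 over 38 large subunit genes. These are descriptions across genes measured in the same libraries, which also differ in length and expression. The class limit and the measure were chosen after the counts were seen, and the part of shared sequence in the low counts was not tested.

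**Figure D1:**
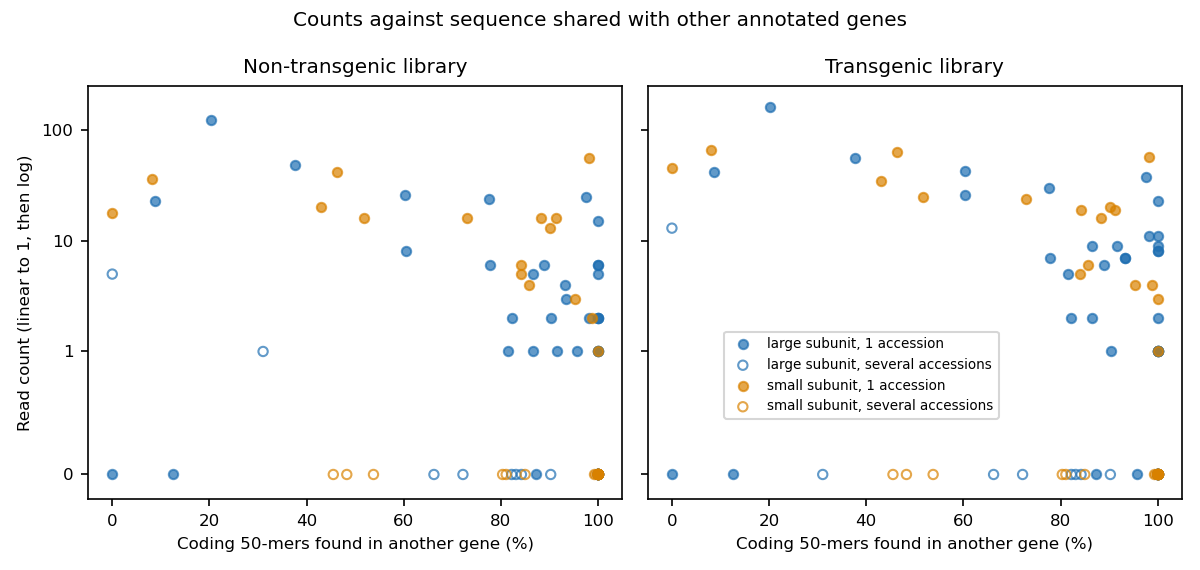
Read count of each ribosomal protein gene (vertical axis, linear up to 1 and logarithmic above) against the percentage of its coding 50-base words found in another annotated gene (horizontal axis), by library. Filled points have 1 transcript accession and open points several. Counts over 20 are rare at the right of each panel, and nearly all open points lie at 0.

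Rps3 with 8.09% and Rpl8 with 8.73% of words shared show the pattern at one end, and Rps25 breaks it. Rps3 had 36 and 66 counts and Rpl8 had 23 and 42. Rps25 had 98.2% of its words shared and yet 56 and 57 counts. It overlaps Trappc4 by 462 bp and Ccdc84 by 206 bp on the opposite strand, which had 2 and 3 and 0 and 0 counts. Rpl4, with 20.3% of words shared, had the highest count of all members, 122 and 162. It lies on chromosome 9, 64173375 to 64178666, plus strand (GRCm38), and its protein lines part of the tunnel through which the new peptide leaves the ribosome. Per length of the GENCODE model, Rpl32 at 568 CPM per kb and Rpl4 at 552 were the highest members among those with a ratio in the transgenic library.

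As a group the members were counted higher in the transgenic library, while the interval of most single genes held a ratio of 1. The summed ratio after normalisation was 1.21 (1.10 to 1.34), from 630 and 962 counts. Of the 37 members with a ratio, 29 lay above 1, 78.4%, beside 51.7% of all 4236 genes with a ratio. Rpl21, Rpl35, Rpl36, Rpl37a, Rpl32l, Rpl7a, Rps7 and Rpsa passed the limit for a ratio only through the transgenic library. Their place above 1 was thus fixed by that limit, and no member passed only through the non-transgenic library. The median log2 ratio of the 37 members was 0.35, beside 0.05 for all genes, and the same genes raise it. A library scaling moves every gene's log2 ratio by the same amount, so the difference of 0.30 between these medians does not depend on it. Of the mitochondrial ribosomal protein genes, 36 of 53 with a ratio lay above 1, with a median log2 ratio of 0.25, while their summed ratio was 0.902 (0.830 to 0.981). In bulk tissue, more cells of a type and more RNA per cell cannot be told apart.

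**Figure D2:**
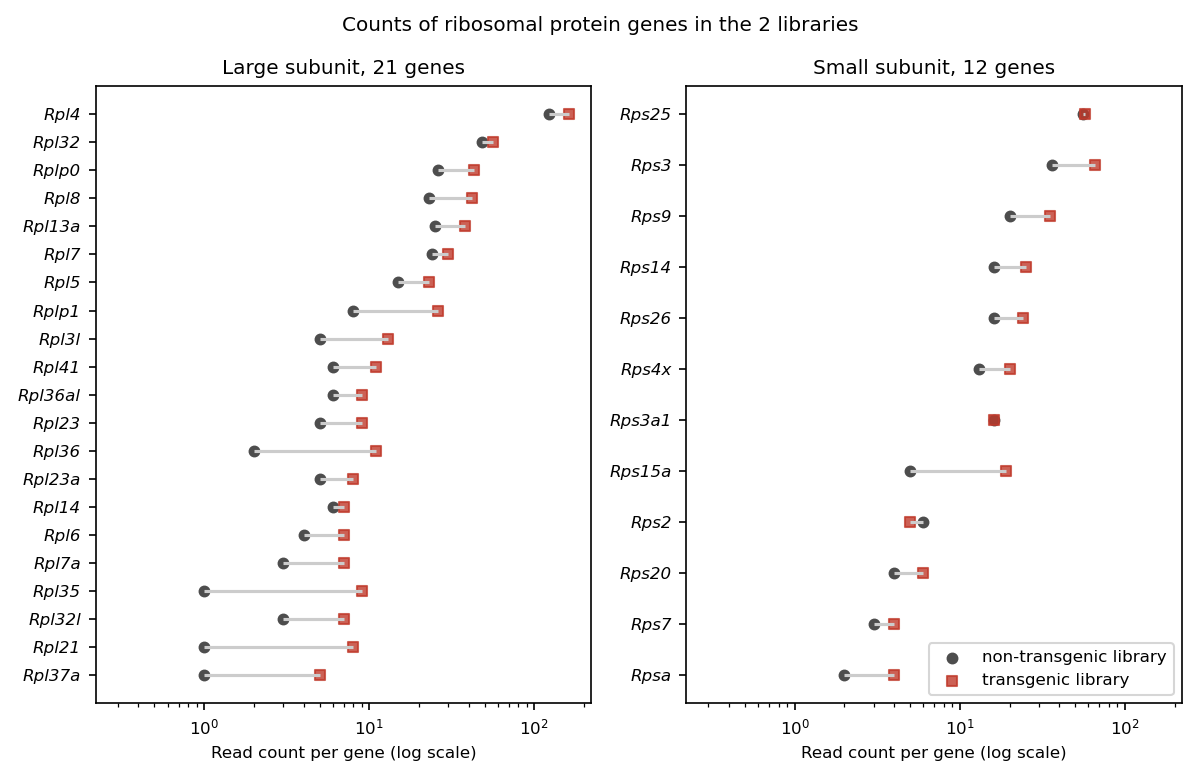
Read counts (horizontal axis, log scale) of 33 of the 37 ribosomal protein genes that had over 3 counts in either library, large subunit at the left and small subunit at the right, ordered by summed count. Grey circles are the non-transgenic and red squares the transgenic library. Rps2 is the one gene with its square to the left of its circle, in raw counts that are not scaled for library size.

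A gene is called higher or lower here when its ratio passes 1.5-fold and its interval excludes 1. By this rule 3 of 37 members were higher (8.11%) and 0 lower, and 34 were neither. Among all 4236 genes with a ratio, 145 were higher (3.42%) and 250 lower (5.9%). That split turned to 218 higher and 185 lower with DESeq2 size factors and to 244 and 148 with total counts alone. With these scalings the members called higher were 6 of 37, as Rpl35, Rpl36 and Rps3 joined. Of these, Rpl35 and Rpl36 passed the limit for a ratio only through the transgenic library, so their direction was fixed by that limit.

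Among the genes called higher were Rplp1 and Rps15a. Rplp1 (chromosome 9, 61913284 to 61914542, minus strand), an acidic protein of the stalk that binds translation factors, had 8 and 26 counts. Its ratio was 2.58 (1.14 to 6.60). Rps15a (chromosome 7, 118104372 to 118116188, minus strand), a small subunit protein, had 5 and 19 counts and the ratio was 3.02 (1.09 to 10.4). Neither had an exon of a counted gene on the opposite strand within 5 kb. Both lower ends lie close to 1, and no interval covers variation between animals or preparations.

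The partner of Rplp1 in the stalk and the base of the stalk had smaller ratios or no count. Rplp0, the protein that anchors the stalk, had 26 and 43 counts, giving a ratio of 1.31 (0.790 to 2.23). Rplp2, which pairs with Rplp1, had 3 accessions and 0 counts in both libraries.

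Some large subunit genes had high ratios on very few counts. Rpl35 had 1 and 9 counts, giving a ratio of 7.16 (0.992 to 314), and overlaps Wdr38 and Arpc5l on the opposite strand, with 0 and 0 and 13 and 18 counts. Rpl21 had 1 and 8, which gives a ratio of 6.36 (0.853 to 282). Rpl36 had 2 and 11, which gives a ratio of 4.37 (0.954 to 40.6), and Rpl37a had 1 and 5, which gives a ratio of 3.98 (0.445 to 188). Each of these intervals holds 1.

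**Figure D3:**
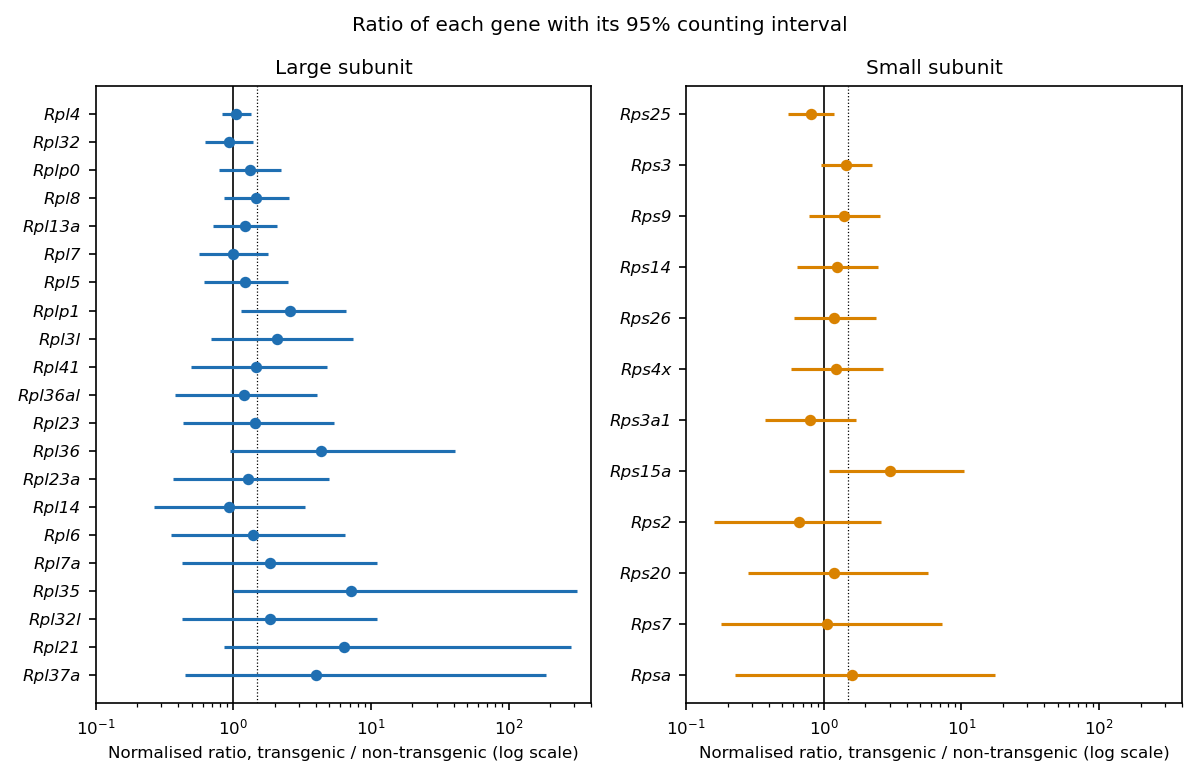
Normalised ratio of the same 33 ribosomal protein genes, transgenic over non-transgenic (horizontal axis, log scale), with its 95% counting interval as a bar, in the order of the plot of counts. The solid line marks 1 and the dotted line 1.5. The intervals of Rplp1 and Rps15a lie wholly to the right of 1, and no interval lies wholly to its left.

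Ratios of 4 of the most counted members lay on both sides of 1. Rpl4 had a ratio of 1.06 (0.830 to 1.35). Rps3, which lines the entry of the messenger RNA channel, had a ratio of 1.46 (0.957 to 2.25) and passed the rule under DESeq2 size factors (1.57) and total counts alone (1.64). Rpl32, which overlaps Cand2 by 53 bp, had 48 and 56 counts and the ratio was 0.928 (0.620 to 1.39). Cand2 itself had 253 and 409 counts, giving a ratio of 1.29 (1.10 to 1.51). Rps25 had a ratio of 0.809 (0.550 to 1.19). With the main scaling the intervals of these 4 genes all hold 1.

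Of the remaining large subunit genes, Rpl8 had a ratio of 1.45 (0.853 to 2.53), and Rpl13a with 25 and 38 counts had 1.21 (0.711 to 2.09). Rpl7 had 24 and 30 counts and the ratio was 0.994 (0.562 to 1.78). Rpl5, which overlaps Dipk1a (204 and 209 counts) by 953 bp, had 15 and 23 counts and the ratio was 1.22 (0.609 to 2.51). Rpl41, which encodes a very short basic peptide, had 6 and 11 counts, Rpl23 had 5 and 9, and Rpl23a had 5 and 8. Rpl14 had 6 and 7, Rpl6 4 and 7, and Rpl7a 3 and 7. Rpl32l, a copy of Rpl32 from which reads may be shared, had 3 and 7. These genes were all neither higher nor lower by the rule.

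Of the remaining small subunit genes, Rps9 with 20 and 35 counts had a ratio of 1.39 (0.781 to 2.54). Rps14, a protein of the platform of the small subunit, had 16 and 25 counts and the ratio was 1.24 (0.638 to 2.49). Rps26 had 16 and 24, which gives a ratio of 1.19 (0.608 to 2.40). Rps3a1 with 16 and 16 counts had a ratio of 0.795 (0.372 to 1.70). Rps4x, the X-linked gene, had 13 and 20 counts, Rps20 4 and 6, Rps7 3 and 4, and Rpsa, which also acts as a laminin receptor, 2 and 4. Rps2 had 6 and 5 counts and the lowest ratio of the members, 0.663 (0.160 to 2.61). Rps2 lies 131 bp from Ndufb10 on the opposite strand, which had 98 and 175 counts. None of these genes passed 1.5-fold beyond its interval.

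Both subunits were counted higher in the transgenic library, by factors that could not be told apart within counting error. The 53 large subunit genes had 360 and 549 counts, giving a ratio of 1.21 (1.06 to 1.39), and the 33 small subunit genes had 270 and 413, which gives a ratio of 1.22 (1.04 to 1.42). The ratio of the first to the second was 0.997 (0.809 to 1.23), which does not depend on library scaling. A difference between subunits within this interval was not detectable at this depth. Medians over members with a ratio were 0.50 on the log2 scale for 22 large and 0.28 for 15 small subunit genes, where genes of few counts weigh as much as others. Above 1 were 18 of 22 and 11 of 15. In both subunits these include members that passed the limit for a ratio only through the transgenic library. The intervals of 36 of 37 members held the pooled ratio of 1.21, the exception being Rps25.

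The summed ratio was lowest where an exon on the opposite strand overlaps, for members and for all genes. The members' intervals overlap between the classes. Members were classed as overlapping if an exon of a counted gene on the opposite strand shares at least 1 bp with theirs, as near if one lies within 5 kb, and as isolated otherwise. The 13 overlapping members had 133 and 160 counts, giving a ratio of 0.957 (0.755 to 1.21). Most of these counts were of Rps25 (56 and 57) and Rpl32 (48 and 56). The 30 near members had 330 and 509, which gives a ratio of 1.23 (1.07 to 1.41), and the 43 isolated members had 167 and 293, which gives a ratio of 1.39 (1.15 to 1.70). Over all genes these sums had ratios of 0.827, 1.04 and 1.04. Medians of log2 ratios were 0.09, 0.39 and 0.48 for 6, 12 and 19 members, beside -0.21, 0.08 and 0.17 for all genes of the same classes. The median of the members lay above that of all genes in each class. Overlapping genes held 67.3% and 62.6% of all counts in the libraries, but 21.1% (18.0 to 24.5) and 16.6% (14.3 to 19.1) of the members' counts. A stranded kit was used and no source used here gives the strand setting of the counting, so reads of an overlapping gene may belong to its partner. The unknown setting bears on the counts of near and isolated members as well, and its part in these ratios and shares was not tested.

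**Figure D4:**
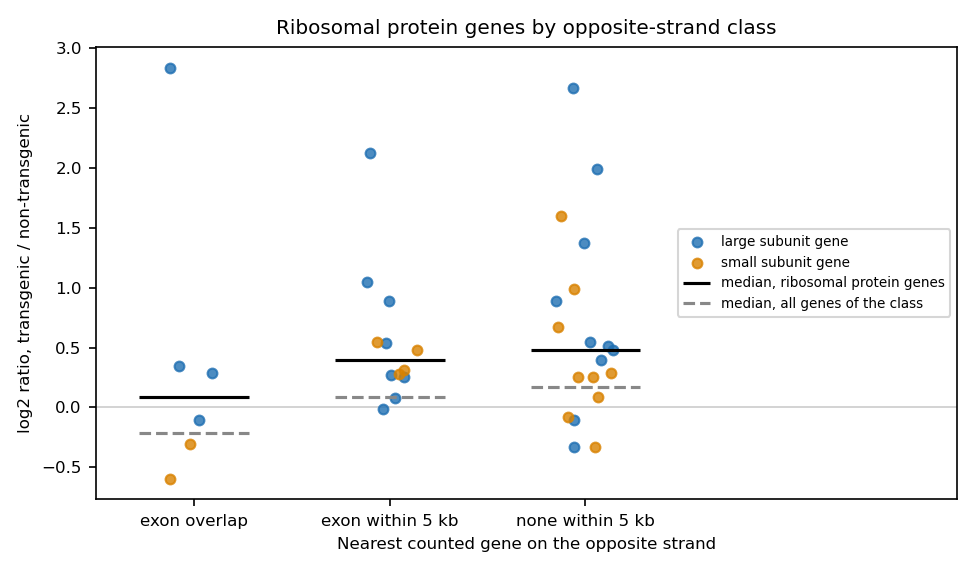
Log2 ratio (vertical axis) of the 37 ribosomal protein genes with a ratio by the class of their nearest counted gene on the opposite strand. Blue points are large and orange points small subunit genes, black bars their medians (0.09, 0.39 and 0.48) and dashed bars the medians of all genes of the class (-0.21, 0.08 and 0.17). Points are spread sideways at random.

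Paralogues that differ by tissue were counted to different extents. Rpl3l, which replaces Rpl3 in striated muscle after birth, had 5 and 13 counts, giving a ratio of 2.07 (0.692 to 7.41). Rpl3 had 1 and 0. Per length of the GENCODE model, the levels of Rpl3l were 28.4 and 65.9 CPM per kb and those of Rpl3 4.34 and 0.0. The model used for Rpl3l has 720 coding bases, against 1209 for Rpl3, and a shorter model gives a higher level for the same count. Rpl3l had no word shared with another gene and Rpl3 had 95.7%, and the part of this difference in their counts was not tested. Rpl36al, a copy of Rpl36a, had 6 and 9 counts, against 0 and 1 for Rpl36a. Rpl39 had 1 and 2 and Rpl39l none, and Rpl22 had 1 and 0 and Rpl22l1 none. Rpl10 and Rpl10l, and Rps27 and Rps27l, had no count in either library. Rps4l was not analysed here.

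Other genes of translation had lower median ratios than the ribosomal protein genes. The members' median log2 ratio of 0.35 was raised by genes that passed the limit only through the transgenic library, as described above. It was 0.29 among members with at least 20 counts over both libraries, a filter not applied to the lists. Of 18 elongation factors and other TOP messages, 13 had a ratio, of which 1 was higher, 1 lower and 11 neither, with a median log2 ratio of 0.04. Eef1b2, a subunit of the exchange factor of elongation, had 25 and 52 counts, giving a ratio of 1.65 (1.01 to 2.78). This gene overlaps another on the opposite strand. Eif4b, a helper of the helicase of initiation, had 50 and 26, which gives a ratio of 0.413 (0.247 to 0.677). Eef2, the translocase of elongation, had 119 and 164, which gives a ratio of 1.10 (0.860 to 1.40). Of 33 initiation factors, 20 had a ratio, with 1 higher, 1 lower and 18 neither and a median of 0.25. Eif2s1, which carries the phosphorylation site of the stress response, had 3 and 16 counts, giving a ratio of 4.24 (1.21 to 22.7). It passed the limit for a ratio only through the transgenic library. Eif3l had 21 and 11, which gives a ratio of 0.416 (0.181 to 0.904).

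Of 45 ribosome biogenesis genes, 26 had a ratio, 1 was higher, 0 were lower and 25 were neither, with a median of 0.11. Their summed ratio lay on the other side of 1, at 0.846 (0.774 to 0.925). Most of the 956 and 1017 counts in this sum were of Bysl (438 and 430) and Tsr1 (265 and 244). Both overlap a gene on the opposite strand, and 16 of the 26 single ratios of the list lay above 1. The gene called higher was Utp14a, a factor of small subunit assembly, with 0 and 7 counts. Utp14a overlaps a gene on the opposite strand and passed the limit for a ratio only through the transgenic library. Its ratio was 1.86 with the non-transgenic count set at the floor of 3, and the counting interval from the counts themselves starts at 1.15. Of 20 genes of ribosome rescue, storage and growth control, 19 were in the tables and 7 had a ratio, all neither, with a median of 0.13. Nemf, which marks stalled large subunits, had 241 and 267 counts, giving a ratio of 0.881 (0.737 to 1.05), and Habp4 had 8 and 11. Among ribosomal proteins with other names, Rack1, a signalling scaffold on the small subunit, had 26 and 39 counts (ratio 1.19, 0.708 to 2.04), and Fau had none. Nemf and Rack1 also overlap a gene on the opposite strand. No list was tested against other genes.

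With the main scaling, the cardiomyocyte and fibroblast marker sums differed between the libraries beyond counting error, and the endothelial and leukocyte intervals hold 1. The summed ratio of cardiomyocyte markers is given above as 1.35. Most counts of that sum were of Myl2 (2405 and 3916), which overlaps a gene on the opposite strand. The 6 fibroblast markers, all with a count, had sums of 50 and 38, which gives a ratio of 0.604 (0.386 to 0.940). Scaling by DESeq2 size factors or by total counts alone would move the upper end of this interval past 1. Of 6 endothelial markers 4 had a count, with sums of 223 and 258, which gives a ratio of 0.920 (0.766 to 1.11), and Pecam1 and Egfl7 had none. Of 6 leukocyte markers 4 had a count, with sums of 10 and 17, which gives a ratio of 1.35 (0.585 to 3.30), and Ptprc and Cd74 had none. Pecam1, Egfl7, Ptprc and Cd74 each have several RefSeq transcripts, and genes of that class were seldom counted here. Their lack of counts does not show that these cells were absent. All 5 erythroid markers had 0 counts in both, which does not show that erythroid cells were absent. Shared sequence was not measured for any of the markers. The part of these cell types in the ratio of ribosomal protein genes was not tested.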

How the data were processed

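Per the labels' protocols, stranded libraries were prepared from poly-A messenger RNA of 3 pooled hearts each. The authors deposited raw read counts by RefSeq accession. STAR, HTSeq and the mm10 build are named in the submitters' processing notes, without versions, annotation or strand setting. No sample column was left out.

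Of 41449 accessions, 41252 were named from RefSeq and 99 from GENCODE M21, 98 stayed as rows of their own, and counts were summed per gene. Libraries were scaled with edgeR 4.0.16 TMM factors (0.943 and 1.06). A count of 0 was replaced by 3 counts where a ratio was given. A quasi-likelihood test in edgeR needs replicates and was not possible. The calculations were tested on simulated counts. The members, the gene lists, the tests and the rule for named genes (every member with more than 3 counts in a library, the paralogue pairs, called list genes) were chosen with earlier results of these data known. Results of a few single genes that the rule takes are left out of the text, while group sums, medians and counts include them. The alternatives tried were size factors of DESeq2 1.42.0, upper-quartile and total-count scaling, counts per accession, stricter filters and subsets of members. Other tools were R 4.3.3, Python 3.11.15, numpy 2.4.6, scipy 1.17.1, pandas 2.3.3 and matplotlib 3.10.9. Promoter windows are those of RefSeq on GRCm38.p6, and other coordinates are those of GENCODE M21 on GRCm38, also called mm10.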

Additional observations from a re-analysis of the deposited data

How the results depend on the processing

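The summed ratios of both subunits stayed above 1 with their intervals under each scaling, per accession, and without overlapping members, paralogues or the most counted member of each subunit. Among members with under 75% of words shared, a subset chosen after seeing the data, the large subunit's ratio was 1.17 with an interval that holds 1. The count of members higher by 1.5-fold was 6 under scaling by total counts and also 6 under DESeq2 size factors. Among all 4236 genes with a ratio, 244 and 218 were higher with these scalings. The median log2 ratio moved to 0.52 with total counts alone, while the median of all genes shifted by 0.17, and by 0.11 with DESeq2 size factors. Ratios below 1 crossed it for Rpl7 (1.07 with DESeq2 size factors, 1.12 with total counts) and, with total counts, for Rpl14 (1.04) and Rpl32 (1.04). These shifts follow from the scaling factors. No paired analysis was possible because each group has 1 library, and no library could be left out. Ratios for genes of 1 to 3 counts were not run, since both libraries lie at or under the floor. Depth limits most members: 17 and 22 of 86 reached 10 counts.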

Other observations

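Ribosomal protein genes often carry small nucleolar RNA genes, which guide modification of ribosomal RNA, in their introns. Of the 86 members, 30 had at least 1 such gene within their span on the same strand, and 23 of these had a count, against 29 of 56 without. Their medians were 2.5 and 5.5 counts in the non-transgenic and the transgenic library, against 0.0 and 0.0. Median log2 ratios were 0.28 for 17 and 0.51 for 20 members with a ratio. Of the 23 members with several RefSeq transcripts, 21 had no count, and all but Rpl30 and Rplp2 lacked a small nucleolar RNA gene. The part of transcript number in this contrast of counts was not tested. Members with a pyrimidine tract at the start had a median log2 ratio of 0.28 over 12 genes, and members without one had 0.50 over 12.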
